A study of Mus musculus with 12 samples.

Results

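Lysosome and autophagy genes were followed as a list of 33 genes in mouse embryonic stem cells whose histone deacetylase genes Hdac1 and Hdac2 can be deleted with a drug, over the days of such a course. The list was made up by gene symbol: 7 cathepsins, 7 other lumenal enzymes and their cofactors, 7 lysosomal membrane proteins, 2 transcription factors and 10 autophagy genes. Each of the 33 has at least 1 probe in the annotation of the array. In 31 of them at least 1 probe was detected on 3 or more of the 12 arrays, out of 9934 genes tested in all. The 2 genes left out were Gla, the alpha-galactosidase gene, whose only probe was detected on 0 arrays, and Tfeb, a transcription factor gene, whose 2 probes were detected on at most 1 array.

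The cells were E14 embryonic stem cells, a long-established mouse line, with floxed alleles of both genes (Hdac1 lox/lox, Hdac2 lox/lox) and CreER, a Cre recombinase that 4-hydroxytamoxifen (OHT) activates. They grew on gelatin, free of feeder cells, in serum with LIF, and OHT was given at 1 µM for 16 hours. RNA was taken on days 0, 1, 2 and 3, with 3 arrays per day, and day 0 is the baseline of the course. All 4 days are titled with OHT, whereas the series design calls the day 0 cells wild type, so it is not settled whether those cells met OHT. No cells without the loxP sites that were given OHT and no untreated cells kept for the same days are among the samples, so the deletion, the drug and the time in culture cannot be told apart. The promoter of CreER and the number of clones are not stated. The labels do not say whether the 3 replicates of a day were separate cultures, so the spread behind every p-value is that between these samples and may be technical.

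Lysosomes are acid compartments in which hydrolases such as the cathepsins break down proteins, lipids and sugars, and the V-ATPase proton pump keeps them acid. Autophagy brings cytoplasm there: the ULK1 and Beclin 1 complexes start a membrane, WIPI proteins mark it, proteins of the LC3 and GABARAP families are joined to its lipid, and receptors such as p62, the product of Sqstm1, bind the cargo. TFEB and its relative TFE3 are transcription factors that switch on many of these genes through E-box-like promoter elements known as CLEAR elements. In mouse embryonic stem cells TFE3 is also known as a regulator of the exit from self-renewal.

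The promoters of 4 genes are printed because the elements named above are looked for there, and because the genes differ in what they did during the course. The sequences are RefSeq's, on build GRCm38.p6, and run from 250 bases before to 50 bases after an annotated start, 5′ to 3′ on the strand of the gene. Capitals mark each CACGTG, the E-box core of the CLEAR element, and its longer form TCACGTGA. Both motifs read the same on either strand, and each TCACGTGA holds a CACGTG. Distances are those of the first base of CACGTG from the start. Ctsl (chr13:64370471-64370770, minus strand) and Gaa (chr11:119267713-119268012, plus strand) rose, as did Atp6v0d1 (chr8:105566015-105566314, minus strand), whose call was fragile. Mcoln1 (chr8:3500269-3500568, plus strand), which encodes the lysosomal calcium channel mucolipin 1, was not called.
Ctsl: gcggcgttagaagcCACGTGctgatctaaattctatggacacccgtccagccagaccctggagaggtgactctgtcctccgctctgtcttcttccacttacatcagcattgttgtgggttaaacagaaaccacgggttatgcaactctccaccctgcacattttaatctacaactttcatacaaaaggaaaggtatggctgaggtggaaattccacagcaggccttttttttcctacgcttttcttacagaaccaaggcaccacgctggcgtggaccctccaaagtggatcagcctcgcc
Gaa: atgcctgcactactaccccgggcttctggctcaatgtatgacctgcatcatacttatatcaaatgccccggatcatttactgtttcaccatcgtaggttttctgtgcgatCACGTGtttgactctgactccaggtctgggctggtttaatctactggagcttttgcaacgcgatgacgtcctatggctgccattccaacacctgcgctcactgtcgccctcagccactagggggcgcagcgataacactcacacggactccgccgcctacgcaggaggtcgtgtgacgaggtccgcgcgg
Atp6v0d1: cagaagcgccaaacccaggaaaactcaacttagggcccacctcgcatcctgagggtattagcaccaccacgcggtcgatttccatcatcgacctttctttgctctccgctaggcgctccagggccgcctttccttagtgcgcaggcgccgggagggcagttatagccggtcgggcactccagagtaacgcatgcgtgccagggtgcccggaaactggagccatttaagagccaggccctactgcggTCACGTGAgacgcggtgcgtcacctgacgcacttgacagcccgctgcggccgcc
Mcoln1: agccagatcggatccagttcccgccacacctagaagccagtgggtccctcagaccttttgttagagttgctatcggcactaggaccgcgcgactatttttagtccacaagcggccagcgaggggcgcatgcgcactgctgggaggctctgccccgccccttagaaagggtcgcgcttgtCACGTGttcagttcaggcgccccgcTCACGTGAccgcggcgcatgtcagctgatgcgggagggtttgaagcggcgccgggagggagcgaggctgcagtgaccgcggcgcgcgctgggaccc

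The CACGTG of Ctsl lies 236 bases before the start and that of Gaa 140 bases before it, whereas the element of Atp6v0d1 begins 3 bases before it. Mcoln1 holds CACGTG at 71 and 45 bases before the start, the nearer within TCACGTGA. Of the listed genes, 27 had a RefSeq window, with 32 windows among them, and Ctsh, Ctsb, Npc1, Atp6v1h, Becn1 and Map1lc3a had none. CACGTG stood in 31.2% of the 32 windows and in 7.15% of all 32851 windows of the same length, and TCACGTGA in 15.6% against 0.974%. The 10 genes with CACGTG were Ctsl, Gaa, Atp6v0d1, Mcoln1, Ctsa, Ctsd, Gla, Glb1, Lamp1 and Atg5. Of the 9 among them that were tested, 3 were called higher at day 3, against 9 of the 16 tested genes whose windows hold no CACGTG. Of the 4 tested genes with TCACGTGA, 1 was called higher, against 11 of the 21 tested genes whose windows lack it. Of all genes tested, 21.4% were called higher at day 3, and differences between these shares were not tested. Among the genes with CACGTG, Ctsd and Mcoln1 lay near background, where a change is hard to call. Ctsl lay there at day 0 but was called, and Glb1 was called at day 2 only. Of the genes without a window, Ctsh, Ctsb and Map1lc3a were called higher at day 3, and Npc1, Atp6v1h and Becn1 were not called. The shares therefore do not show that genes with the motif rose less. A match is a stretch of letters in this window only, and no binding was measured.

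The arrays differed in brightness. The upper quartile of the intensity lay between 272.2 and 382.2, and was 324.2, 375.7 and 382.2 on the day 2 arrays. On an array, 14509 to 16770 of 45281 probes were detected. With no scaling between arrays, all genes had a median change of 0.27 at day 2 against day 0 and of -0.36 at day 3 against day 2. Correlations of arrays of 1 day were 0.9781 to 0.9928, and those of arrays of different days 0.9431 to 0.9917 for arrays compared in pairs. Day 3 replicate 3 gave the lowest value of its day for 39.6% of all genes and for 17 of the 31 listed genes, and the day 3 calls of listed genes that change without it are named below. No probe is named Hdac1, and the tables do not place the 2 Hdac2 probes relative to the deleted part, so neither can serve as a check of the deletion. The bright Hdac2 probe had 13.70, 13.40 and 13.65 at day 0, 13.57, 13.39 and 13.51 at day 1, 13.60, 13.68 and 13.71 at day 2, and 13.24, 13.12 and 13.60 at day 3, and was not called at day 3 against day 0 (-0.26, limma adjusted p = 0.167 over all probes). The dim one had 6.57, 6.36 and 6.47 at day 0, 6.23, 6.26 and 5.31 at day 1, 5.92, 5.70 and 5.96 at day 2, and 5.62, 5.53 and 5.34 at day 3, and was detected on 3, 2, 1 and 0 arrays of those days. The day 3 arrays of the dim probe lie below those of day 0, while those of the bright probe overlap with them. Of the 8 embryonic stem cell markers, all were detected, and 5 fell by day 3, among them, as log2 changes against day 0, Pou5f1 (-0.66), Nanog (-0.73) and Zfp42 (-0.66). The summed normalized intensity of the 8 was 111383 to 115144 on the day 3 arrays and 135074 to 139101 on the day 0 arrays. Dppa5a, the brightest of them, weighs most in this sum and was not called (mean 16.05 at day 0 and 16.06 at day 3). The sum therefore understates the fall of the genes that fell. Of 12 endoderm markers, 5 were tested, of which Amn (4.00) and Dab2 (0.85) rose and Sox7 (-0.80) fell, while Gata4, Gata6, Sox17, Foxa2, Cubn, Ttr and Afp were not detected. Of 10 trophectoderm markers, 7 were tested: 5 rose (Gata3, Krt7, Krt8, Krt18 and Tfap2c), Cdx2 fell, and Eomes, Elf5 and Hand1 were not detected. Gata3 was detected on 0 day 0 arrays and on all 3 at day 3. It passed the filter through the later days, and its rise is measured against background. The sum of the 7 trophectoderm genes was 15421 to 17000 at day 3 and 10304 to 11615 at day 0, and that of the 5 endoderm genes was 2583 to 2952 at day 3 and 1128 to 1187 at day 0. Such sums weigh the brightest genes most, at day 3 Tfap2c and Krt8 of the 7, and Amn and Lrp2 of the 5. Amn had a mean of 6.67 at day 0 and 10.67 at day 3, and Lrp2 had 9.29 and 9.33. Thy1 (1.75) was the only one of 9 fibroblast markers detected, and of 7 macrophage markers Aif1 and Csf1r were near background and not called. These shifts ran over the same days as those of the lysosome genes, and their part in the results below was not tested.

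Listed genes moved mainly upwards, from day 2 on. Values are normalized log2 intensities, changes are differences of log2 means with limma's standard error, and a gene was called at a limma adjusted p under 0.05 over all 9934 genes. At day 1 against day 0, 0 of 31 listed genes were called either way, where 0.0805% of all genes were called higher and 0.0201% lower. An unadjusted limma p under 0.05 was found for 2 of the 31 and for 994 of all 9934 genes. At day 2 against day 0, 10 of 31 were called higher (32.3%) and 0 lower, against 14.8% and 7.6% of all genes. By day 3, 15 were called higher (48.4%) and 1 lower, against 21.4% and 17.8% of all genes. Of these rises, 8 of the 10 at day 2 and 12 of the 15 at day 3 were of probes detected on all day 0 arrays, the others being Ctsh, Ctsl and, at day 3, Gabarapl2. With no scaling between arrays, only 3 listed genes were called higher at day 2 and 3 at day 3. Rises made up 66.1% of the calls over all genes at day 2, but 46.6% with arrays scaled to their 75th percentile, where 8 listed genes rose at day 2 and 12 at day 3. The 31 had a median change of 0.06 on day 1, of 0.36 on day 2 and of 0.43 on day 3, beside 0.02, 0.03 and 0.01 for all genes. At day 3, 16 listed genes had all 3 arrays above all 3 day 0 arrays, which 24.3% of all genes had. The 3 comparisons share the day 0 arrays. The list was chosen with earlier results of these data known, so its shares beside those of all genes are descriptions, and an excess was not tested. In bulk RNA, a change in the share of cells that express a gene and a change in RNA per cell cannot be told apart.

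Both steps between later days were compared too, and their counts rest on few arrays. At day 2 against day 1, 6 of 31 were called higher (Ctsh, Ctsl, Ctsb, Ctsc, Glb1 and Wipi1) and 0 lower, against 7.3% and 3.53% of all genes. The 6 were 3 without day 1 replicate 1, day 1 replicate 2 or day 2 replicate 3, and the calls of Ctsb, Ctsc and Glb1 were lost in 6, 7 and 7 of 23 alternatives. At day 3 against day 2, Cd63 and Map1lc3a were called higher, and Neu1 and Lamp2 lower, against 5.7% and 6.7% of all genes. There were 5 rises and 3 falls without day 3 replicate 3, where Ctsz, Psap and Sqstm1 were added as higher and Atp6v1h as lower, and 0 rises without day 2 replicate 3 or day 3 replicate 2. Any change across the 4 days, by limma's F test, was called for 16 of 31, against 37.6% of all genes. Between day 0 and the later days, 9 genes were higher on both day 2 and day 3, 6 were called higher at day 3 only, and Glb1 was called at day 2 only. Of all genes, 14.8% were called higher at day 2 and 21.4% at day 3, and the share with each pattern was not counted. Being called on 1 day and not the other does not show that a gene differed between the 2 days.

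Calls were spread over 4 of the groups. At day 2 they were 4 of 7 cathepsins, 4 of 6 lumenal enzymes and cofactors, 0 of 7 membrane proteins and 2 of 10 autophagy genes, all higher, where 14.8% of all genes were, with median changes of 0.50, 0.51, 0.20 and 0.31. At day 3 they were 5 of 7 cathepsins, 3 of 6 lumenal genes, 2 of 7 membrane proteins and 5 of 10 autophagy genes higher, and 1 membrane protein gene lower, beside 21.4% and 17.8% of all genes. The 2 membrane protein rises are 28.6% of their group. The medians were then 0.79, 0.35, 0.24 and 0.64. These are descriptions of small groups, and a difference between the groups was not tested.

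**Figure D1:**
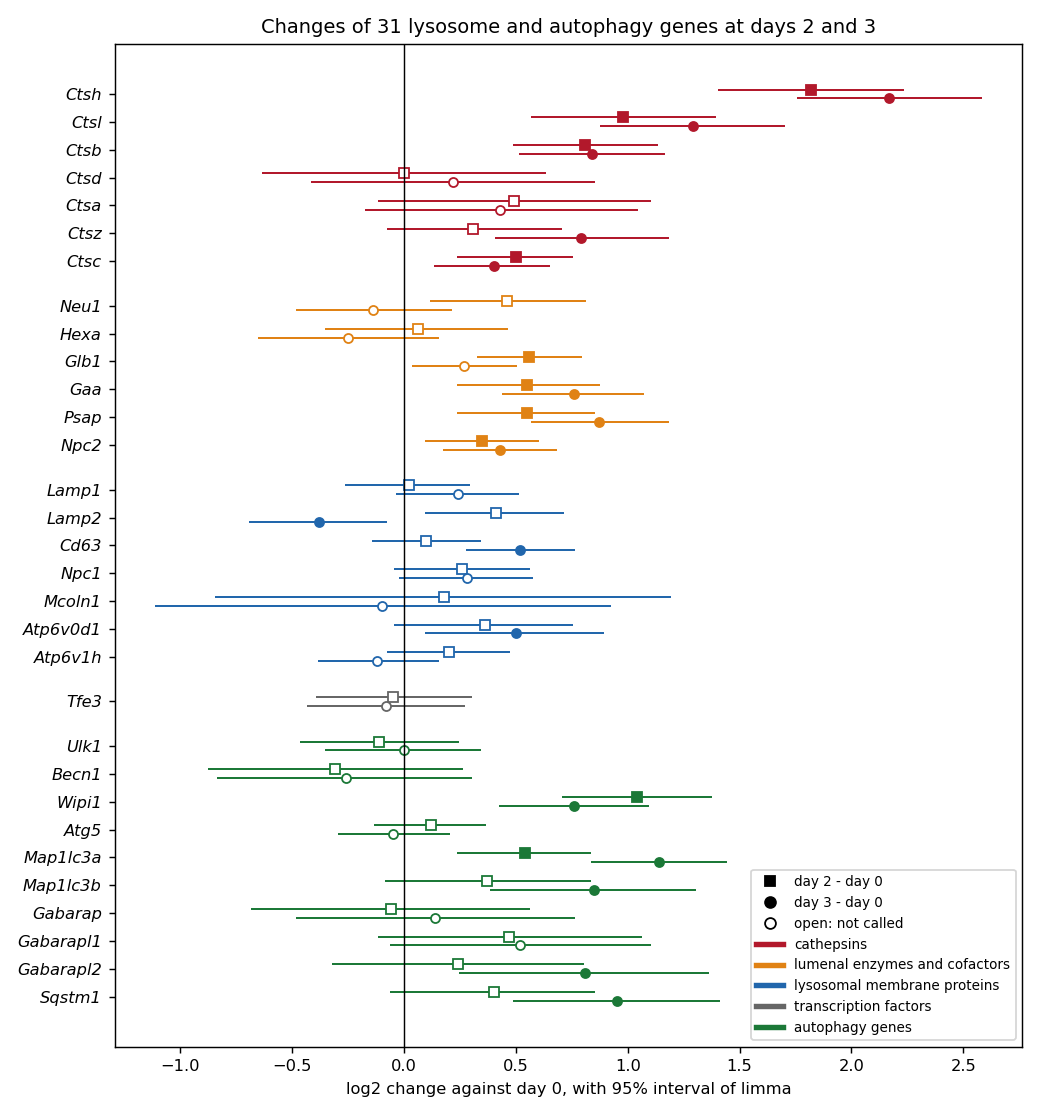
Log2 change against day 0 of the 31 tested genes at day 2 (squares) and day 3 (circles), with limma's 95% intervals. Filled symbols were called at an adjusted p under 0.05, and colours mark the 5 groups. Ctsh has the largest change on both days (1.82 and 2.17), and Lamp2 is the only filled symbol below 0 (-0.38 at day 3).

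Cathepsins are the proteases of the lysosome, and 5 of the 7 rose. Ctsh encodes cathepsin H, a cysteine protease that trims the ends of peptides. Its values were 5.98, 5.66 and 6.60 at day 0, 6.92, 6.99 and 6.96 at day 1, 8.0, 7.93 and 7.75 at day 2, and 8.25, 8.35 and 8.14 at day 3. The 4 days follow each other without overlap between adjacent days. It rose by 1.82 ± 0.19 at day 2 (3.52-fold, limma adjusted p = 5.53e-05) and by 2.17 ± 0.19 at day 3 (4.5-fold, adjusted p = 4.06e-06). The probe was detected on only 1 of 3 day 0 arrays, and without background correction the rises were 0.79 and 1.00. At day 1 the change of 0.88 was not called (adjusted p = 0.125), although without day 0 replicate 3, the highest baseline array, it was 1.13 and passed (0.00849). A second, dimmer probe of Ctsh was undetected on all arrays of days 0 and 1 and was detected on 2 arrays each of days 2 and 3. Its means were 6.05 at day 3 and 4.70 at day 0, which gives no bound above the detection limit, and since it passed the filter through days 2 and 3 alone its test is not given.

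Ctsl encodes cathepsin L, an endopeptidase that embryonic stem cells are also known to use on histone H3 during differentiation. It had 6.23, 5.68 and 6.0 at day 0, 6.15, 5.53 and 6.01 at day 1, 6.98, 6.81 and 7.05 at day 2, and 7.53, 7.15 and 7.10 at day 3. Days 0 and 1 overlap, and all arrays of days 2 and 3 lie above both. The probe was detected on 1 of 3 arrays at day 0 and at day 1, and on all arrays of days 2 and 3, through which it passed the filter. The fitted changes of 0.98 ± 0.19 at day 2 (limma adjusted p = 0.00299) and 1.29 ± 0.19 at day 3 (adjusted p = 0.000191) are thus measured against signals near background and give no exact fold. Both were called in all 23 alternatives, which include 1 with no filter on dim probes, and without background correction they were 0.34 and 0.49. All the alternatives use this same probe, so they are no separate support. Since the probe passed the filter through the days where it is high, its p-values are given as descriptions. The step from day 1 to day 2 was 1.05 ± 0.19 (adjusted p = 0.00456), and 0.37 without background correction.

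Ctsb encodes cathepsin B, another cysteine protease. Its values were 10.95, 11.03 and 11.25 at day 0, 11.21, 11.15 and 11.39 at day 1, 11.74, 11.99 and 11.93 at day 2, and 12, 11.62 and 12.12 at day 3. The later pair of days lies above the earlier pair, and days 2 and 3 overlap. Ctsb was 0.81 ± 0.15 higher at day 2 (limma adjusted p = 0.00216) and 0.84 ± 0.15 higher at day 3 (1.79-fold, adjusted p = 0.000708). Ctsc, the gene of the dipeptidyl peptidase cathepsin C, had 8.91, 8.81 and 8.54 at day 0, 8.85, 8.79 and 8.72 at day 1, 9.20, 9.20 and 9.34 at day 2, and 9.18, 9.09 and 9.18 at day 3. It followed the same course at a smaller size, 0.50 ± 0.12 at day 2 (adjusted p = 0.00961) and 0.40 ± 0.12 at day 3 (1.32-fold, adjusted p = 0.0173). Its day 3 call was lost without day 0 replicate 3 (0.29, adjusted p = 0.0695) and with the mean of its 3 detected probes (0.18, adjusted p = 0.22). The other probes of Ctsc changed by -0.09 and 0.22.

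Ctsz, which encodes cathepsin Z (also called X), a carboxypeptidase, ran differently. It had 7.90, 8.05 and 7.75 at day 0, 8.45, 8.68 and 8.37 at day 1, 8.15, 8.23 and 8.26 at day 2, and 8.92, 8.95 and 8.22 at day 3. All arrays of each later day lie above day 0, but day 2 lies below day 1, and 1 day 3 array, replicate 3, lies within the range of day 2. Only the day 3 rise was called, at 0.79 ± 0.18 (1.73-fold, limma adjusted p = 0.00367), and without background correction it was 0.53. The changes of 0.60 at day 1 and 0.31 at day 2 were not called (adjusted p = 0.27 and 0.232). A second Ctsz probe was 1.19 ± 0.28 higher at day 3 (adjusted p = 0.00552 over all probes).

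Of the 2 cathepsins not called, Ctsa encodes a serine carboxypeptidase that also protects neuraminidase and beta-galactosidase. It had 9.26, 9.26 and 8.30 at day 3 and 8.99, 8.52 and 8.02 at day 0, so that the days overlap (0.43 ± 0.28, limma adjusted p = 0.239). Without day 3 replicate 3 the change was 0.75 and passed (0.0277). A second Ctsa probe changed by -0.27. Ctsd, the gene of the aspartic protease cathepsin D, was not detected on any day 0 array and on 1 of 3 arrays of each later day, so its change of 0.22 is a difference between signals near background.

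**Figure D2:**
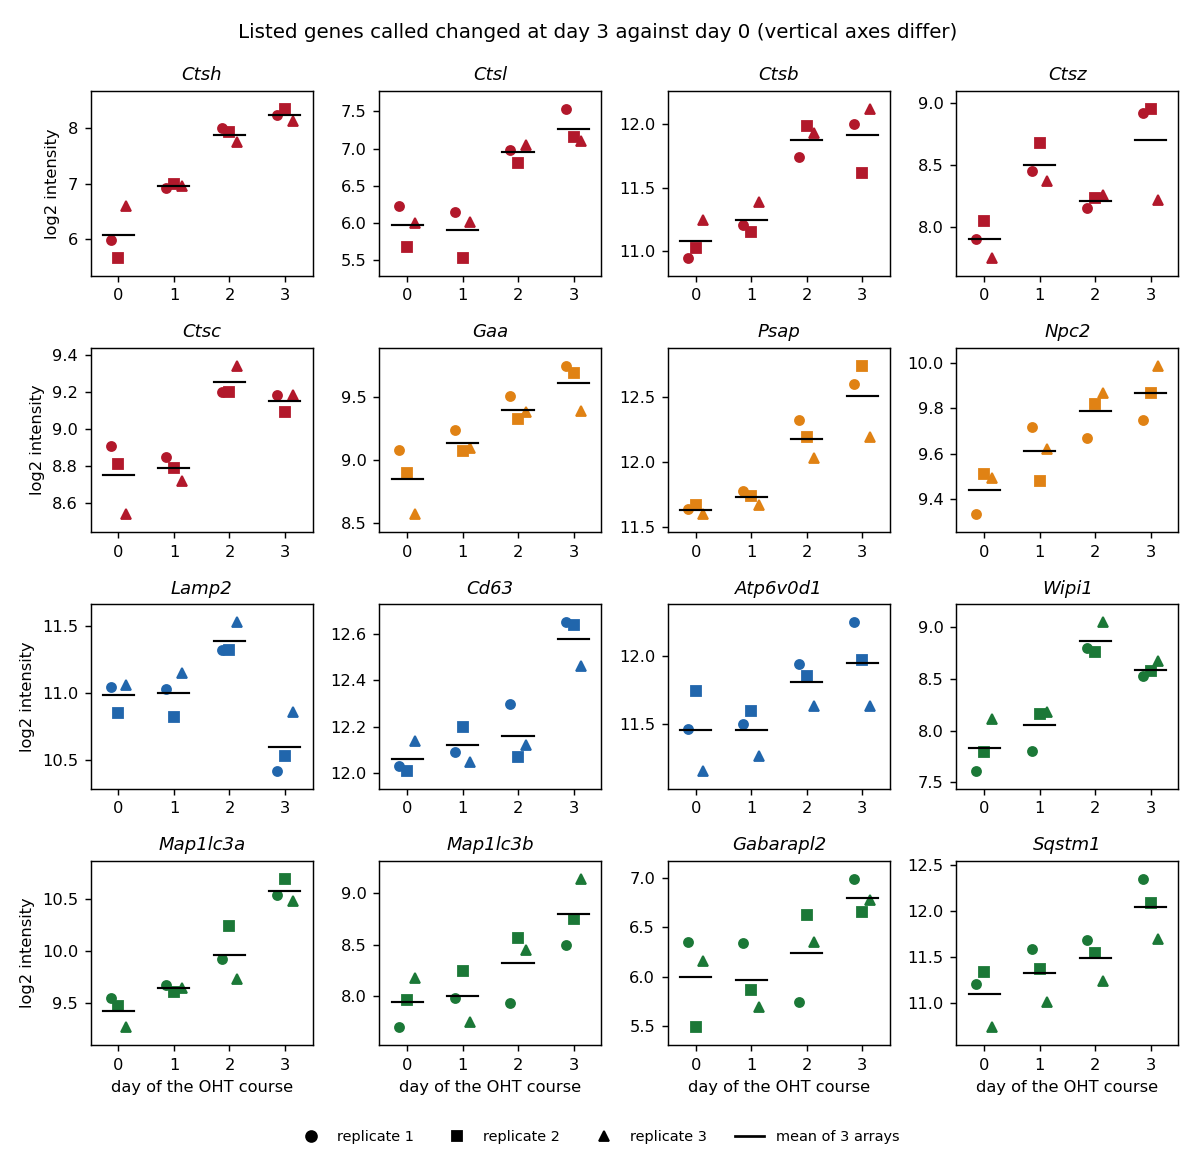
Normalized log2 intensity on each array against the day of the course for the 16 listed genes called at day 3, with symbols for replicates and a bar for the mean of 3 arrays. The vertical axes differ. Ctsh climbs on every day, Cd63 is flat until day 3, and Lamp2 peaks at day 2 (mean 11.39) before its lowest values at day 3 (mean 10.60).

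Of the 6 lumenal enzymes and cofactors tested, 4 were called higher at day 2 and 3 at day 3. Psap encodes prosaposin, which is cut into the saposins that present sphingolipids to their hydrolases. It had 11.64, 11.67 and 11.60 at day 0, 11.78, 11.74 and 11.67 at day 1, 12.32, 12.19 and 12.03 at day 2, and 12.60, 12.74 and 12.19 at day 3. The baseline arrays lie close together, and every array of days 2 and 3 is above those of days 0 and 1. Psap was 0.55 ± 0.14 higher at day 2 (limma adjusted p = 0.0144) and 0.87 ± 0.14 higher at day 3 (1.83-fold, adjusted p = 0.000385), and its second probe was 0.78 higher at day 3 (0.00198 over all probes). The day 2 call was lost without day 2 replicate 1 (0.48, adjusted p = 0.0549) and with arrays scaled to their 75th percentile (0.34, 0.139). Gaa, the acid alpha-glucosidase gene, whose product degrades glycogen, had 9.08, 8.90 and 8.57 at day 0, 9.24, 9.07 and 9.10 at day 1, 9.51, 9.33 and 9.38 at day 2, and 9.75, 9.69 and 9.39 at day 3. Its means climbed with each day, and the day 3 arrays all exceed the day 0 arrays. Gaa was higher by 0.55 ± 0.15 at day 2 (adjusted p = 0.0164) and by 0.76 ± 0.15 at day 3 (1.69-fold, adjusted p = 0.00133). At day 2 it was not called without day 0 replicate 3 (0.41, adjusted p = 0.0584) or without day 2 replicate 1 (0.50, 0.0582).

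Npc2, which encodes a lumenal carrier that hands cholesterol to the membrane protein NPC1, had 9.33, 9.51 and 9.49 at day 0, 9.72, 9.48 and 9.62 at day 1, 9.67, 9.82 and 9.87 at day 2, and 9.75, 9.87 and 9.99 at day 3. Day 1 overlaps its neighbours, whereas days 2 and 3 are above day 0 on all arrays. The rise was 0.43 ± 0.12 at day 3 (1.34-fold, limma adjusted p = 0.0111) and 0.35 ± 0.12 at day 2 (adjusted p = 0.0483), and this day 2 call was lost in 15 of 23 alternatives. Glb1, the beta-galactosidase gene, had 9.57, 9.57 and 9.61 at day 0, 9.64, 9.61 and 9.76 at day 1, 10.23, 10.01 and 10.19 at day 2, and 9.90, 9.74 and 9.93 at day 3. It peaked at day 2, where it was 0.56 ± 0.11 higher (1.47-fold, adjusted p = 0.00283), and at day 3 all arrays still lay above day 0. That day 3 change of 0.27 ± 0.11 missed the threshold (adjusted p = 0.0588), but passed with the replicate number as a block (adjusted p = 0.0329). A second Glb1 probe changed by -0.01 at day 3 (limma adjusted p = 0.985 over all probes).

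Neu1 encodes the sialidase of the lysosome. Its values were 8.57, 8.72 and 9.09 at day 0, 8.98, 8.90 and 9.28 at day 1, 9.30, 9.29 and 9.17 at day 2, and 8.46, 8.65 and 8.86 at day 3. All day 2 arrays are above day 0, and all day 3 arrays are below day 2. The only call was the fall at day 3 against day 2, -0.60 ± 0.16 (limma adjusted p = 0.0284), which ended when any array of day 2, or replicate 1 or 2 of day 3, was left out (-0.64 to -0.50, adjusted p = 0.0635 to 0.0995). Against day 0, the changes were 0.46 at day 2 (0.0532) and -0.14 at day 3 (0.531). Hexa, the gene of the alpha subunit of beta-hexosaminidase, had 8.56, 8.24 and 8.13 at day 3 and 8.47, 8.91 and 8.30 at day 0, and it was not called in any comparison.

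Among the 7 membrane protein genes, 2 were called higher and 1 lower at day 3. Cd63 encodes a tetraspanin of late endosomes and lysosomes. It had 12.03, 12.01 and 12.14 at day 0, 12.09, 12.20 and 12.05 at day 1, 12.30, 12.07 and 12.12 at day 2, and 12.65, 12.64 and 12.46 at day 3. The first 3 days overlap, and day 3 lies above them all. Cd63 was 0.52 ± 0.11 higher at day 3 than at day 0 (1.44-fold, limma adjusted p = 0.00243) and 0.42 ± 0.11 higher than at day 2 (adjusted p = 0.0266). The second of these ended when day 2 replicate 2 or 3 or day 3 replicate 1 or 2 was left out (adjusted p = 0.0833 to 0.0909). Atp6v0d1, a subunit gene of the membrane sector of the V-ATPase, had 11.46, 11.74 and 11.15 at day 0, 11.50, 11.59 and 11.26 at day 1, 11.94, 11.85 and 11.63 at day 2, and 12.25, 11.97 and 11.63 at day 3. Its day 3 and day 0 arrays overlap, the change was 0.50 ± 0.18 (1.41-fold, adjusted p = 0.0455), and the call was lost in 13 of 23 alternatives. Its 3 other probes were also higher at day 3, by 0.41, 0.57 and 0.42, and the last 2 were called in the fit over all probes (adjusted p = 0.0339 and 0.021).

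Lamp2 encodes a major glycoprotein of the lysosomal membrane and the receptor of chaperone-mediated autophagy. It had 11.05, 10.85 and 11.06 at day 0, 11.03, 10.82 and 11.15 at day 1, 11.32, 11.32 and 11.53 at day 2, and 10.42, 10.53 and 10.86 at day 3. Day 2 is above and day 3 below the earlier days, except that day 3 replicate 3 overlaps both. The fall at day 3 against day 2 was -0.79 ± 0.14 (limma adjusted p = 0.00424), and with the mean of its 4 detected probes it was -0.51 (0.0148). Against day 0, the fall of -0.38 ± 0.14 at day 3 had an adjusted p of 0.0465 and was lost in 15 of 23 alternatives, and the change of 0.41 at day 2 was not called (0.0556). The other 3 probes of Lamp2 changed by -0.55, 0.04 and -0.25 at day 3, and none of the 4 was called there in the fit over all probes (adjusted p of 0.0547 or more).

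Of the membrane protein genes not called against day 0, Lamp1, the partner of Lamp2, had 12.45, 12.12 and 12.39 at day 3 and 12.07, 12.04 and 12.13 at day 0 (0.24 ± 0.13, limma adjusted p = 0.149). Npc1, the cholesterol transporter gene, had 9.74, 9.83 and 9.71 at day 3 and 9.25, 9.59 and 9.62 at day 0, without overlap (0.28 ± 0.14, adjusted p = 0.133). A second Npc1 probe was called higher at day 3 in the fit over all probes (0.55, adjusted p = 0.0308) and the remaining one changed by -0.06. Atp6v1h, which encodes a regulatory subunit of the V-ATPase, changed by -0.12 (95% interval -0.38 to 0.15). Mcoln1 was too variable to judge, at 7.45, 5.29 and 6.88 on the day 3 arrays and 7.24, 6.88 and 5.79 on the day 0 arrays (95% interval of the change -1.11 to 0.92), and it was detected on 2 of 3 arrays on either day. Tfe3, the only transcription factor tested, had 8.42, 8.44 and 8.81 at day 3 and 8.64, 8.51 and 8.76 at day 0, a change of -0.08 with an interval of -0.43 to 0.27.

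Of the 10 autophagy genes, 5 were called higher at day 3, namely Map1lc3a, Map1lc3b, Gabarapl2, Wipi1 and Sqstm1, where 21.4% of all genes were. Map1lc3a encodes LC3A. It had 9.54, 9.47 and 9.26 at day 0, 9.67, 9.60 and 9.64 at day 1, 9.92, 10.24 and 9.73 at day 2, and 10.53, 10.69 and 10.48 at day 3. Every day lies above the one before it on all arrays. Map1lc3a was higher by 0.54 ± 0.14 at day 2 (limma adjusted p = 0.0147) and by 1.14 ± 0.14 at day 3 (2.21-fold, adjusted p = 4.63e-05), and the second probe was 1.00 higher at day 3 (0.000688 over all probes). The step from day 2 to day 3 was 0.61 ± 0.14 (adjusted p = 0.0149). Leaving out day 0 replicate 3 (0.0517) or day 2 replicate 2 (0.0627) ended the day 2 call, and leaving out day 2 replicate 3 (0.0661) or day 3 replicate 2 (0.0598) ended that of the step.

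Map1lc3b encodes LC3B, the family member most used to follow autophagosomes. Its values were 7.70, 7.97 and 8.18 at day 0, 7.99, 8.25 and 7.75 at day 1, 7.94, 8.57 and 8.45 at day 2, and 8.5, 8.75 and 9.14 at day 3. Only day 3 is free of overlap with day 0, and it was called there at 0.85 ± 0.21 (1.80-fold, limma adjusted p = 0.00654). Sqstm1, which encodes the receptor p62 that links ubiquitin-tagged cargo to LC3, had 11.21, 11.34 and 10.74 at day 0, 11.59, 11.37 and 11.02 at day 1, 11.69, 11.55 and 11.24 at day 2, and 12.35, 12.09 and 11.70 at day 3. The replicates keep wide gaps on each day, and all day 3 arrays are above those of day 0. It rose by 0.95 ± 0.21 at day 3 (1.93-fold, adjusted p = 0.00347), and its change of 0.40 at day 2 was not called (0.205).

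Wipi1 encodes a protein that binds phosphoinositides on the forming membrane. It had 7.61, 7.79 and 8.11 at day 0, 7.80, 8.16 and 8.18 at day 1, 8.80, 8.76 and 9.05 at day 2, and 8.53, 8.58 and 8.67 at day 3. Day 2 is highest on all arrays, and day 3 lies between it and the early days. The rise was 1.04 ± 0.15 at day 2 (2.05-fold, limma adjusted p = 0.000509) and 0.76 ± 0.15 at day 3 (1.69-fold, adjusted p = 0.00177), and without background correction 0.68 and 0.48. A second Wipi1 probe was 0.73 higher at day 3 (0.0353 over all probes). Another was detected on no array of day 0 or day 3 but on all 3 of day 2, where it was at least 1.22-fold above day 0 and at least 1.26-fold above day 3. It passed the filter only because of day 2, which fixes the direction of these bounds. Its tests are therefore not given, and the bounds are no support for the rise. Each such bound sets the mean of the bright day against the detection limit of the dim day's arrays.

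Gabarapl2 encodes the GABARAP family member also called GATE-16. It lay near background, with 6.35, 5.49 and 6.16 at day 0, 6.34, 5.87 and 5.70 at day 1, 5.75, 6.62 and 6.35 at day 2, and 6.99, 6.65 and 6.78 at day 3. The day 3 arrays are above those of all other days. Its change of 0.81 ± 0.26 at day 3 (1.75-fold, limma adjusted p = 0.0248) shrank to 0.28 without background correction. The call was lost without day 0 replicate 2 (0.56, adjusted p = 0.108), without day 3 replicate 1 (0.72, 0.0792) and with the mean of its 2 detected probes (0.27, 0.399). The second probe, which was near background too, changed by -0.27.

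The other 5 autophagy genes were not called on any day. Gabarapl1 had 9.15, 9.60 and 8.37 at day 3 and 8.82, 8.71 and 8.04 at day 0 (0.52 ± 0.27, limma adjusted p = 0.145), and without day 3 replicate 3 it passed (0.85, 0.00861). Gabarap had 12.70, 12.46 and 12.04 at day 3 and 12.86, 12.28 and 11.63 at day 0, with a spread between replicates several times the change of 0.14. Ulk1, the kinase that starts autophagy, changed by 0 (95% interval -0.35 to 0.34). Becn1, which encodes Beclin 1, changed by -0.26 (-0.83 to 0.30), and Atg5, whose product takes part in joining LC3 to lipid, by -0.05 (-0.29 to 0.20). None of these intervals shows that a gene did not change.

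**Figure D3:**
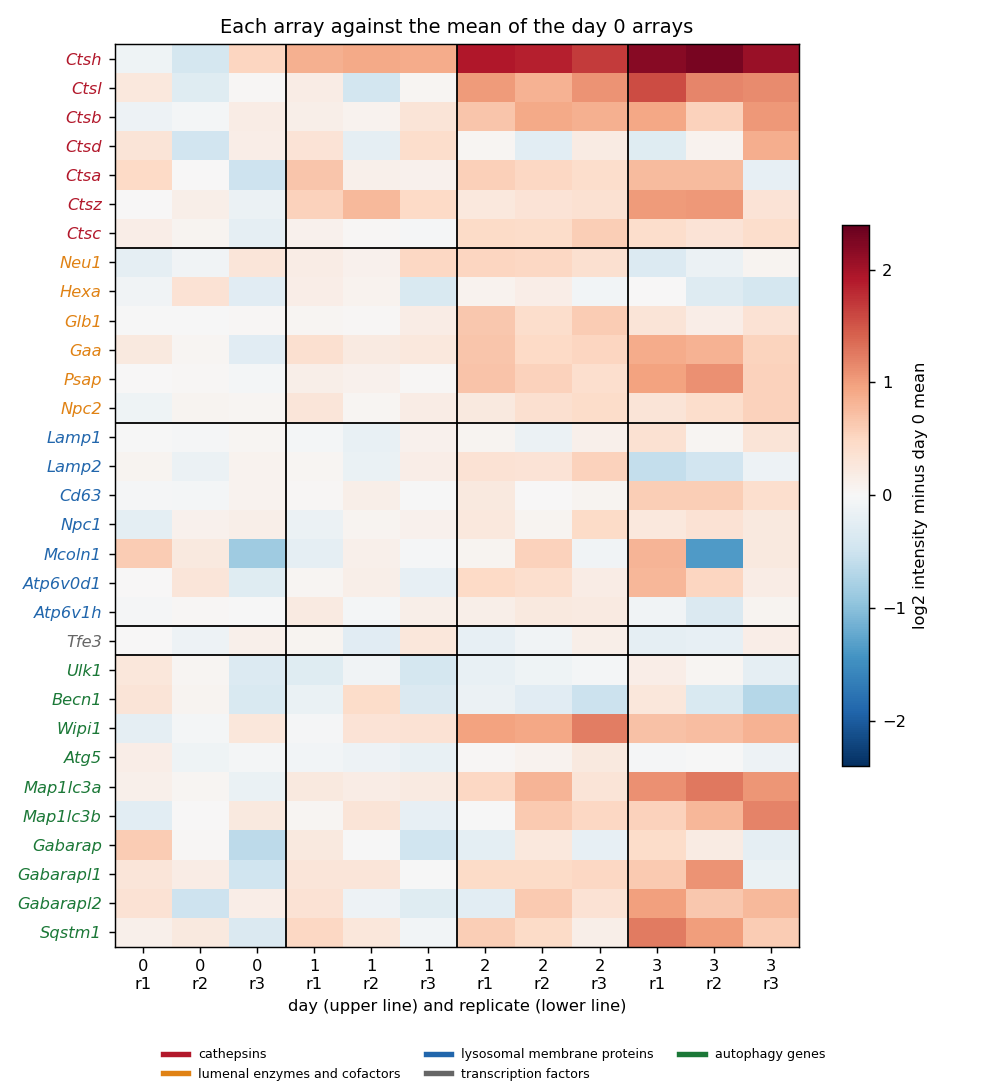
Log2 intensity of the 31 tested genes on each of the 12 arrays minus the mean of the 3 day 0 arrays, red where higher and blue where lower, with genes in rows by group and arrays in columns by day and replicate. Ctsh is the deepest red at days 2 and 3, and day 3 replicate 3 is paler than its neighbours for Ctsa, Ctsz, Psap, Gabarapl1 and Sqstm1.

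More than 1 detected probe measured 16 of the 31 genes. The 9 genes called higher at day 3 that had another probe had 14 of them. Of these, 11 were also higher, 8 were called higher in the fit over all 14940 probes and 3 were lower (Ctsc, Wipi1 and Gabarapl2, by -0.09, -0.05 and -0.27), with 0 called lower. Without the Ctsh and Wipi1 probes that no day 0 array detected, 10 of 12 were higher and 7 called. Genes not called had 7 other probes, of which the Npc1 probe named above was called. The remaining 15 genes rest on a single probe, among them Ctsl, Ctsb, Gaa, Npc2, Map1lc3b and Sqstm1.

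**Figure D4:**
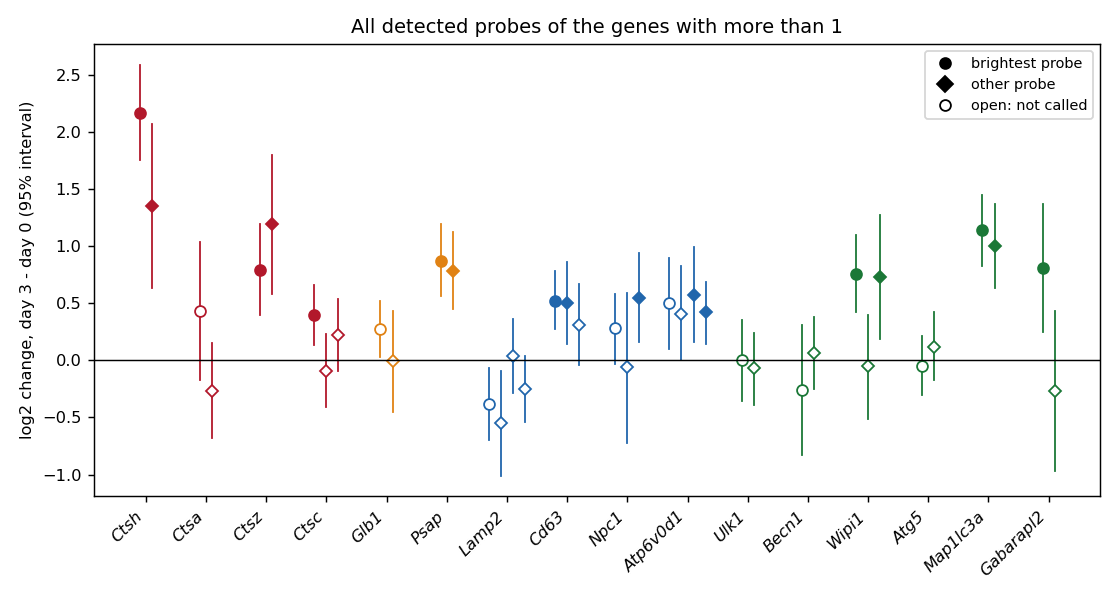
Log2 change at day 3 against day 0 with 95% intervals for every detected probe of the 16 genes with more than 1, the brightest probe as a circle and the others as diamonds. Filled symbols were called over all 14940 probes, a larger family than the genes, so that Lamp2 (adjusted p = 0.0547) and Atp6v0d1 (0.0507) are open here. The probes of Psap, Map1lc3a and Atp6v0d1 lie close together, and those of Gabarapl2 lie on opposite sides of 0.

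Other genes of the pathway, 134 in a wider list of hydrolases, membrane proteins, V-ATPase subunits, sorting factors, autophagy factors and regulators, showed calls in both directions. Of these, 97 were tested, 11 had no probe with their symbol and 26 were not detected. At day 1, 0 were called and 4 had an unadjusted limma p under 0.05, as did 994 of all 9934 genes. At day 2, 12 were called higher (12.4%) and 4 lower (4.12%), and at day 3, 16 higher (16.5%) and 11 lower (11.3%). Over all genes the shares were 14.8% and 7.6% at day 2, and 21.4% and 17.8% at day 3, and a difference from them was not tested. The median change of the wider list at day 3 was 0.02. By group, calls at day 3 were 3 higher and 2 lower of 14 lumenal enzymes, 3 and 1 of 11 membrane proteins, 3 and 2 of 13 V-ATPase subunits, and 4 and 1 of 16 sorting factors. They were 0 and 2 of 6 proteases, 2 and 0 of 14 initiation and nucleation genes, 1 and 0 of 6 conjugation genes, 0 and 2 of 6 receptors (Nbr1 and Fundc1), and 0 and 1 of 11 regulators (Lamtor2). The count of falls at day 3 was 6 without day 0 replicate 1 and 17 with the mean of each gene's probes.

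Among the rises, 2 of the 6 largest were sorting factors. Gnptg, a subunit gene of the transferase that makes the mannose 6-phosphate tag of lysosomal enzymes, had 9.79, 9.87 and 9.84 at day 0, 10.19, 10.35 and 10.14 at day 1, 10.58, 10.51 and 10.41 at day 2, and 10.84, 10.77 and 10.63 at day 3. Its days do not overlap, and it rose by 0.91 ± 0.11 at day 3 (1.88-fold, limma adjusted p = 3.91e-05). Sort1 encodes sortilin, a receptor that carries prosaposin and other cargo to lysosomes, and was 10.57 ± 0.23 at day 3 and 9.72 ± 0.11 at day 0 (SD, n = 3 each), a rise of 0.84 (limma adjusted p = 0.000258). The V-ATPase subunit genes Atp6v0e (13.65 ± 0.10 and 12.85 ± 0.08) and Atp6v0b (10.93 ± 0.11 and 10.19 ± 0.12) rose by 0.80 and 0.75, the values again being those of day 3 and then day 0. Tmem192, a lysosomal membrane protein gene, rose by 0.89, and Atg2a, a lipid transfer protein gene of autophagy, by 0.73.

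Falls in the wider list reached further than the rises did. Scarb2 encodes LIMP-2, the receptor that takes glucocerebrosidase to lysosomes. It had 8.22, 8.07 and 8.20 at day 0, 7.89, 8.0 and 7.84 at day 1, 7.48, 7.56 and 7.44 at day 2, and 6.73, 6.27 and 6.29 at day 3. Every day lies below the day before on all arrays, and by day 3 it had fallen by 1.73 ± 0.13 (3.32-fold lower, limma adjusted p = 1.5e-06). Without background correction the fall was by 0.84, and the probe was detected on 2 of 3 day 3 arrays. Manba, the beta-mannosidase gene, held its level through day 2 and then dropped: it had 12.84, 12.67 and 12.83 at day 0, 12.67, 12.64 and 12.73 at day 1, 12.73, 12.48 and 12.73 at day 2, and 11.53, 11.52 and 11.65 at day 3 (-1.22 ± 0.11 against day 0, 2.32-fold lower, adjusted p = 5.84e-06). The remaining named falls were smaller.

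While 5 listed cathepsins rose, 2 cathepsin genes of the wider list fell. Ctsf, the gene of the cysteine protease cathepsin F, was 6.55 ± 0.11 at day 3 and 7.51 ± 0.14 at day 0 (SD, n = 3 each), a change of -0.97 ± 0.13 (limma adjusted p = 9.51e-05). Ctse, which encodes the aspartic protease cathepsin E of endosomes, was 7.68 ± 0.05 and 8.45 ± 0.19 on those days, a change of -0.77 ± 0.15 (adjusted p = 0.00123). Without background correction the changes were -0.43 and -0.48. Atp6v0e2, a V-ATPase isoform gene and paralogue of Atp6v0e, changed by -0.70 ± 0.22 (adjusted p = 0.0244) where Atp6v0e rose. Leaving out day 0 replicate 1 (0.0843), day 0 replicate 3 (0.0948) or day 3 replicate 3 (0.0589) ended the call, and without background correction it changed by -0.28. Gusb, the beta-glucuronidase gene, changed by -0.55 ± 0.16 (adjusted p = 0.0162), which did not pass with day 0 replicate 3 (0.0638) or day 3 replicate 2 (0.0665) left out.

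**Figure D5:**
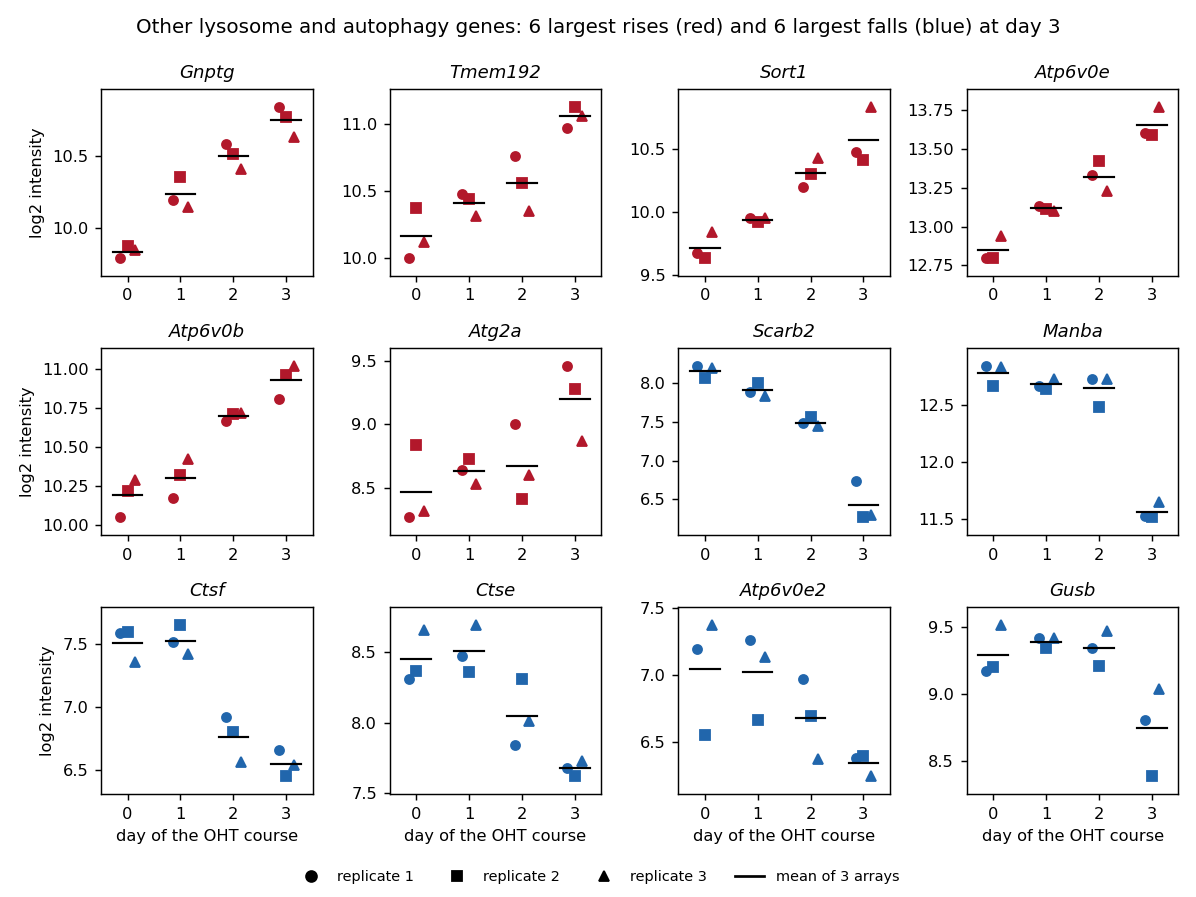
Normalized log2 intensity on each array against the day of the course for the 6 largest rises (red) and 6 largest falls (blue) at day 3 among called genes of the wider list whose day 3 and day 0 arrays do not overlap, with bars for means of 3 arrays and differing vertical axes. Gnptg and Atp6v0b climb day by day, and Manba and Gusb keep near their baseline until day 3.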

How the data were processed

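Expression was read on 12 Illumina bead arrays, 3 per day. The deposited non-normalized table gives for each of 45281 probes an intensity on a linear scale that shows no sign of background subtraction or scaling, and a detection p-value, also deposited. The authors used GenomeStudio, per the submitters' processing notes, with no version given. The authors' normalized intensity table served as an alternative, and 0 per-sample columns stayed unused.

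Intensities were background corrected, quantile normalized and put on the log2 scale with neqc (offset 16) of limma 3.58.1 in R 4.3.3. The deposited values hold no log2, which was taken here. Probes detected at p under 0.01 on at least 3 arrays were kept, and the detected probe with the highest mean stood for its gene (9934 genes from 14940 probes). Symbols came from the probe annotation (1 symbol for 34885 probes, several for 18, none for 10378), of which 34807 probes matched the RefSeq gene table of GRCm38.p6. lmFit and eBayes gave each day its own mean in a single fit over the 12 arrays, and 5 two-sided comparisons were adjusted by Benjamini-Hochberg over all genes. The fit was run on simulated data with independent normal noise. That setting holds no replicates that deviate together and no background signal, so it cannot speak to either. The number of arrays limits the precision. The files name no slide, so no slide was tested as a batch.

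Named were all listed genes called in a comparison, and, of the wider list, the 6 largest rises and falls at day 3 whose arrays did not overlap with day 0. Members, lists and groups were chosen with earlier results of these data known. Same-numbered replicates, by the labels' numbers, deviated together at day 1 against day 0 (r of 0.195 to 0.44) and at day 3 against day 0 (0.259 to 0.422) over all genes, but not for every pair in the other comparisons (-0.032 to 0.458). Promoter windows were RefSeq's. Alternatives changed the normalization, background, filter, probe choice, replicate block, arrays in the fit and eBayes settings, and left out each array.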

Additional observations from a re-analysis of the deposited data

How the results depend on the processing

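Of 36 called changes of listed genes, 9 kept their call in all 23 alternatives, 12 more lost it only with no scaling between arrays, and 0 reversed. Of 119 changes not called, 14 passed in at least 1 alternative. Without scaling, 27 called changes were lost, and all genes had a median change of 0.27 at day 2 and -0.09 at day 3. Listed genes called higher were then 3 at day 2, 3 at day 3, 3 at day 2 against day 1 and 0 at day 3 against day 2. Falls were 0 at day 3 against day 0 and 0 against day 2, and 4 genes passed the F test. The wider list then had 3 rises and 0 falls at day 2, and 0 rises and 3 falls at day 3. Scaling to the 75th percentile gave 8 listed rises at day 2 and 12 at day 3, with 9 falls of the wider list at day 2. Rises were then 46.6% of all calls at day 2 (66.1% with quantile normalization) and 48.6% at day 2 against day 1 (67.4%). Falls of the wider list at day 2 were 2 with cyclic loess, with no filter on dim probes and with the looser detection threshold of 0.05. The single listed fall at day 3, Lamp2, was 0 in these settings, with the mean of a gene's probes (17 falls of the wider list at day 3) and with only the arrays of the 2 days, where rises at day 3 against day 2 were 0.

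With the replicate block, rises at day 3 against day 2 were 4, Ctsz and Sqstm1 being added. Rises at day 2 were 14, with Neu1, Lamp2, Atp6v0d1 and Sqstm1 added (adjusted p = 0.0224, 0.0159, 0.046 and 0.0171), so that membrane protein genes had 2 of them, and rises at day 2 against day 1 were 8, with Psap and Lamp2 added. The block changed no other count by over 1.5 times. In comparisons where the numbers do not pair, it only shows a shared number.

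Leaving out each array in turn gave 0 to 1 listed rises for day 1, 8 to 12 for day 2, and for day 3 13 to 17, with 0 to 1 falls. Rises at day 2 against day 1 were 3 to 7, with 3 without day 1 replicate 1, day 1 replicate 2 or day 2 replicate 3. At day 3 against day 2 there were 0 to 5 rises and 1 to 3 falls, with 0 rises without day 2 replicate 3 or day 3 replicate 2. The F test called 13 to 17. The wider list had 8 to 13 rises and 2 to 4 falls at day 2, and 12 to 17 rises and 6 to 11 falls at day 3. The slide as a block was not run, since the files name none. The cause of these shifts was not tested beyond the fewer arrays or probes in a setting. Probes near background, those of Ctsh, Ctsl, Ctsd, Gabarapl2 and Mcoln1, are limited most by signal over background.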

Other observations

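Replicate 3 gave the lowest value of the day for more listed genes than the other replicates did at day 0 (14 of 31), day 1 (15) and day 3 (17), but not at day 2 (10). Among all genes, replicate 3 was lowest for 32.1%, 35.4%, 34.1% and 39.6% on days 0 to 3. On both day 0 and day 3, 12 listed genes were lowest on replicate 3, among them Ctsa, Ctsz, Gaa, Psap, Map1lc3a, Gabarap, Gabarapl1 and Sqstm1, which 19.2% of all genes were. Atp6v0d1, Becn1, Ctsa, Hexa, Psap and Sqstm1 were lowest there on all 4 days, which 7.38% of all genes were. The genes share the arrays, no test was run, and the labels give nothing that sets replicate 3 apart.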
